A study of Drosophila melanogaster with 8 samples.

Results

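Synaptotagmins are membrane proteins of vesicles that carry paired C2 domains, and in several of them these domains bind calcium and membrane lipids and so couple calcium entry to vesicle fusion. Other members of the family carry C2 domains that do not bind calcium, and members also differ in the vesicles they sit on: synaptic vesicles, dense-core vesicles that hold peptides, or vesicles of the postsynaptic cell. The family was taken here as the genes whose symbol is Syt1, Syt4, Syt7, Syt12, Syt14, Sytalpha or Sytbeta, which gave 7 of the 17807 genes of the deposited table. Levels are in CPM, a gene's read number after all libraries are brought to 1 common total.

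The RNA came from central nervous systems (CNS) dissected from Drosophila melanogaster larvae in the earliest larval stage, L1. The group called elav5fne carried deletions of both elav and fne and gave 3 libraries, the group called elav5 carried the deletion allele of elav alone and gave 2 libraries, and Canton-S, the wild-type strain, gave 3 libraries. elav and fne encode RNA-binding proteins of the ELAV/Hu family, which in fly neurons control alternative splicing and alternative polyadenylation. Larvae were homozygous and were picked alive by a visible marker, so the mutant libraries stand for larvae that reached this stage, and both mutant groups lack elav. The mutants and the wild-type strain are separate lines, and other differences between the lines cannot be told apart from the loss of the genes.

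Libraries held between 30038106 and 38056274 reads counted in genes. The elav transcript was at 53.2 to 61.0 CPM in elav5fne and 24.4 to 33.4 CPM in elav5, against 599 to 620 CPM in Canton-S. The fne transcript was at 127 to 179 CPM in elav5fne, against 938 to 1129 CPM in elav5 and 960 to 1045 CPM in Canton-S, so every library followed its label. Rbp9, the third gene of the family, was at 11.2 to 28.8 CPM in elav5fne, 11.8 to 12.4 CPM in elav5 and 7.14 to 7.90 CPM in Canton-S. The neuron marker list (10 genes) was detected in every library, with a summed level of 5063 to 5994 CPM in elav5fne, 11026 to 12165 CPM in elav5 and 12260 to 13042 CPM in Canton-S, so neuronal transcripts were present as the tissue label states. Muscle markers (11 genes), by contrast, summed to 2710, 6029.5 and 14922 CPM in elav5fne replicates 1 to 3, to 2744 and 939 CPM in elav5, and to between 1454 and 1791 CPM in Canton-S. Gut markers (8 genes) summed to 56.3, 197 and 409.6 CPM in the same 3 elav5fne libraries and to at most 63.8 CPM in the other libraries. Replicate 3 of elav5fne therefore stood apart in both marker lists, and results that turn on it are given with and without it.

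**Figure D1:**
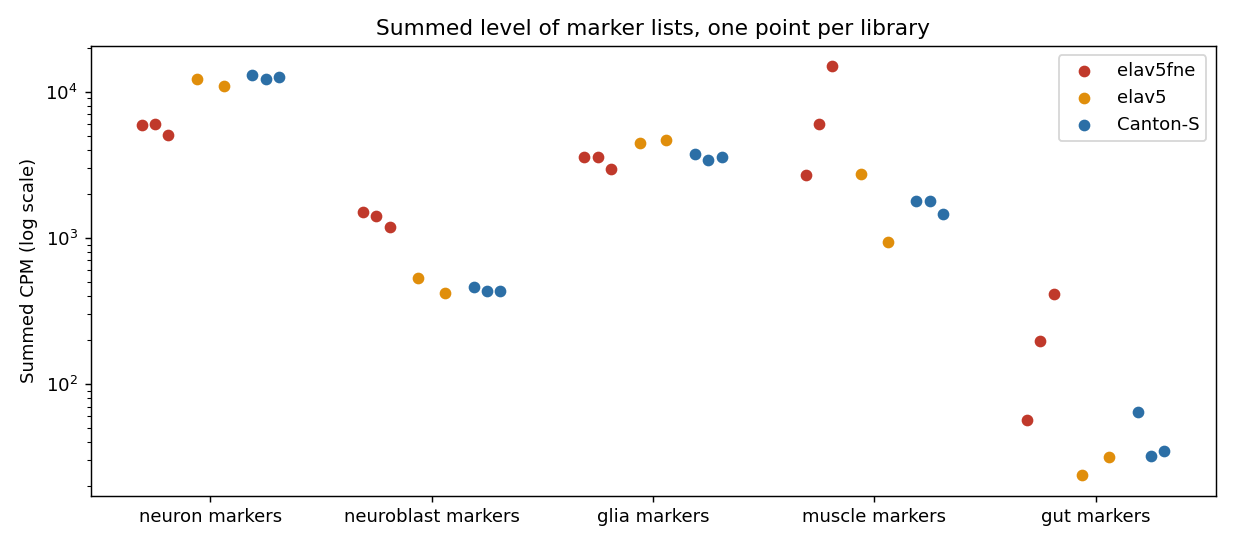
Summed CPM (log axis) of 5 marker lists, 1 point per library, with elav5fne left of elav5 and Canton-S in each list. Neuron markers lie between 5063 and 5994 CPM in elav5fne and at 11026 CPM or more elsewhere, and muscle markers reach 14922 CPM in elav5fne replicate 3.

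The 7 genes lie apart in the genome (annotation BDGP6.54, coordinates of the dm6 assembly). Syt1 (FBgn0004242) lies on 2L from 2772327 to 2799979 on the minus strand and Sytalpha (FBgn0261089) on 2L from 17592260 to 17604387 on the plus strand. Syt14 (FBgn0261086) lies on 3R from 4314455 to 4319069 on the minus strand and Syt4 (FBgn0028400) on 3R from 7266065 to 7270809 on the plus strand. Sytbeta (FBgn0261090) spans 15014695 to 15064977 on the minus strand of 3L, Syt12 (FBgn0261085) spans 13359248 to 13368179 on the plus strand of X, and Syt7 (FBgn0039900) spans 278685 to 306481 on the minus strand of chromosome 4. Syt1 is the gene with the most annotated forms, 8 transcripts with 3 different 3′ ends, whereas Syt4 has 1 transcript. A CPM per gene sums all forms, so a change of form without a change of amount would not appear in these values. All 7 genes passed the filter of 1 CPM in at least 2 libraries in every genotype. The lowest value of any member in any library was 16.8 CPM (Syt12 in elav5fne replicate 3), and none had fewer than 596 reads in a library.

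The first question was how the family stood in the CNS without elav and fne. In elav5fne 5 of the 7 members fell relative to Canton-S and 2 did not pass the test, and no member rose. The falls ranged from Syt12, left at 10.5% of its Canton-S mean, through Syt7 at 21.3%, Sytbeta at 38.1% and Syt1 at 52.6% to Sytalpha at 62.3%. Syt4 and Syt14 were at 95.5% and 102% of their Canton-S means. Lower values were common in this comparison: limma called 59.2% of all 10575 tested genes, 26.7% lower and 32.5% higher. The split between higher and lower depended on scaling, with 54.9% of calls higher here and 41.3% after quantile normalization, which moved the median of all genes to -0.11. The median log2 change was -0.93 over the 7 members and 0.07 over all tested genes. Neuron markers moved the same way, with all 10 lower and a median of -1.15, and in bulk tissue fewer cells of a type and less RNA per cell cannot be told apart.

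Syt1 encodes the main calcium sensor of fast, synchronous transmitter release. It had 987, 1016 and 822 CPM in elav5fne, against 1807, 1734 and 1825 CPM in Canton-S. Each elav5fne library lay below each Canton-S library. The log2 change was -0.93 (SE 0.10, 95% interval -1.16 to -0.70, limma adjusted p = 0.00013).

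Syt7 encodes a relative that in mammals senses lower calcium levels and in flies acts on the supply of vesicles for release. It had 60.1, 62.6 and 55.2 CPM in elav5fne, against 277, 273 and 284 CPM in Canton-S. The libraries of each genotype were close to each other and the genotypes far apart, with a CV of 6.39% in elav5fne and 2.05% in Canton-S. The log2 change was -2.21 (SE 0.08, interval -2.41 to -2.02, adjusted p = 1.6e-06).

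Syt12 and Syt14 are related to mammalian synaptotagmins that do not bind calcium, and they differed most from each other in these data. Syt12 had 18.6, 19.2 and 16.8 CPM in elav5fne, against 152, 156 and 210.2 CPM in Canton-S. Replicate 3 of Canton-S was high for this gene, yet even the lowest Canton-S value was far above all 3 values of elav5fne. Its log2 change of -3.17 (SE 0.13, interval -3.46 to -2.87, adjusted p = 1.8e-06) was the lowest of the family and the 34th lowest of all tested genes. Syt14 had 126, 120.0 and 94.9 CPM in elav5fne, against 111, 100.3 and 124 CPM in Canton-S. Here the 2 genotypes overlapped throughout, and the log2 difference was 0.02 (SE 0.12, interval -0.27 to 0.31, adjusted p = 0.90), a sign that turned negative under TMM and median-ratio scaling. Syt14 overlaps the gene Suv3, which encodes a mitochondrial RNA helicase, over 944 exonic bases on the opposite strand. Suv3 stood at 20.9 ± 0.605 CPM in elav5fne and 42.1 ± 2.11 CPM in Canton-S (SD, n = 3 each), and since the use of strand in counting is not given, reads of the shared bases may count for either gene.

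Syt4 encodes a synaptotagmin that at the fly neuromuscular junction acts in the postsynaptic muscle, in signalling back to the neuron. It had 734, 711 and 526 CPM in elav5fne, against 709, 649.8 and 705 CPM in Canton-S. Replicates 1 and 2 of elav5fne lay just above the Canton-S libraries and replicate 3 well below them. The log2 difference was -0.08 (SE 0.13, interval -0.38 to 0.21, adjusted p = 0.60), and 0.07 (adjusted p = 0.44) without elav5fne replicate 3; over all 20 alternatives the adjusted p lay between 0.31 and 0.77. The library with the lowest Syt4 had the highest muscle marker level, 14922 CPM against 2710 and 6029.5 CPM in replicates 1 and 2. The part of muscle RNA in the Syt4 level was not tested.

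Sytalpha and Sytbeta have been described in neurosecretory cells of the fly, where peptides are released from dense-core vesicles. Sytbeta had 125, 129.8 and 109 CPM in elav5fne, against 338, 309 and 306 CPM in Canton-S. The highest elav5fne library lay far below the lowest Canton-S library, and the log2 change was -1.39 (SE 0.08, interval -1.57 to -1.20, adjusted p = 6.0e-06). Sytalpha had 56.4, 59.9 and 43.0 CPM in elav5fne, against 77.4, 84.0 and 94.2 CPM in Canton-S. Its groups came closer to each other than those of the other called members but did not overlap, and the log2 change was -0.68 (SE 0.14, interval -1.01 to -0.35, adjusted p = 0.0042). In all, the elav5fne libraries lay wholly below the Canton-S libraries for the 5 called members, as they did for 31.9% of all tested genes, while 37.6% lay wholly above. Replicate 3 had the lowest value of the 3 elav5fne libraries for all 7 members, and without it Syt1, Syt7, Syt12, Sytalpha and Sytbeta were still called lower.

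**Figure D2:**
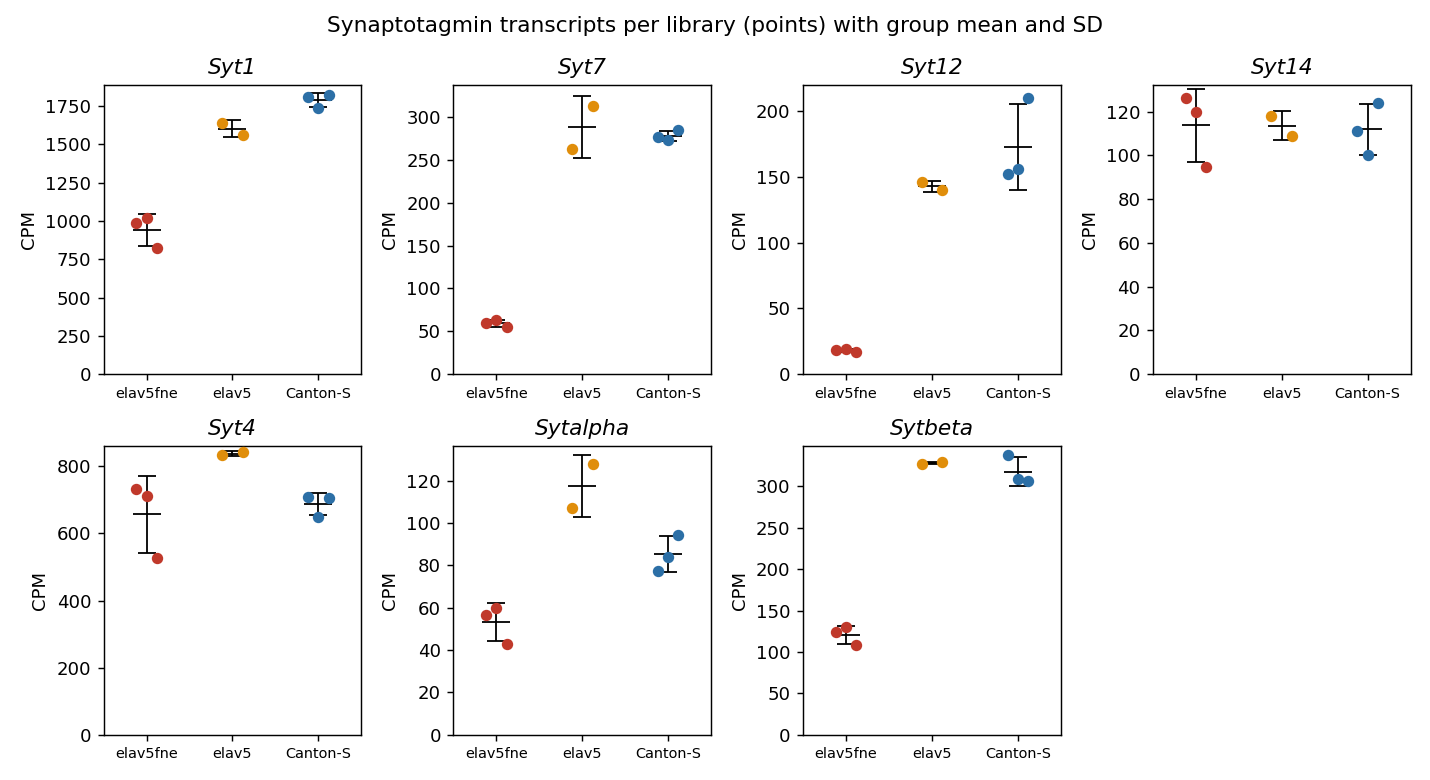
CPM of each synaptotagmin gene (y axis from 0, separate scale per gene) in elav5fne, elav5 and Canton-S; points are libraries, the bar and whiskers the mean and SD. Syt7 sits at 55.2 to 62.6 CPM in elav5fne and at 262 CPM or more in the other libraries, while the genotypes overlap for Syt14.

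The second question was what the loss of elav alone did. No synaptotagmin passed the test between elav5 and Canton-S, where limma called 20.1% of all tested genes, 11.8% lower and 8.29% higher. At an unadjusted p under 0.05 there was 1 member, Sytalpha, while 35.2% of all tested genes passed that threshold. With edgeR on whole reads none was called, and with DESeq2 Sytalpha was. These values share the Canton-S libraries with the comparison above. The elav5 group has 2 libraries and borrows its spread from the other groups.

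The members nearest to a call were higher in elav5. Sytalpha had 107 and 128 CPM in elav5, both above the Canton-S range of 77.4 to 94.2 CPM, with a log2 difference of 0.46 (SE 0.16, interval 0.09 to 0.82, adjusted p = 0.080). Syt4 had 832 and 843 CPM in elav5, above the 649.8 to 709 CPM of Canton-S, with a log2 difference of 0.28 (SE 0.14, interval -0.04 to 0.61, adjusted p = 0.19). For both, the outcome depended on the spread taken from the other groups: without elav5fne replicate 3 the adjusted p was 0.027 for Sytalpha and 0.031 for Syt4, within ranges over all alternatives of 0.022 to 0.32 and 0.031 to 0.38. Glia markers (10 genes) also summed to higher levels in elav5, at 4475 and 4661 CPM, against 3429 to 3730 CPM in Canton-S, and their part in these differences was not tested. The sum is weighted by abundant genes: 2 of the 10, nrv2 and Eaat1, rose (log2 change 0.52 each), 1, zyd, fell (-0.48, adjusted p = 0.046), and the list median was 0.11. Both members lay wholly above Canton-S, as did 22.9% of all tested genes.

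Of the other 5 members, Syt1 had 1639.6 and 1561 CPM in elav5, both below the Canton-S libraries, with a log2 difference of -0.16 (SE 0.11, interval -0.41 to 0.09, adjusted p = 0.34). Syt12 had 146 and 139.8 CPM in elav5, both below its lowest Canton-S value of 152 CPM, with a log2 difference of -0.26 (SE 0.14, interval -0.59 to 0.07, adjusted p = 0.23). Neither gene showed a difference that the test separated from the spread between libraries, and 30.7% of all tested genes lay wholly below Canton-S in this way. Syt7, at 262 and 313 CPM in elav5, had 1 library on each side of its Canton-S range. Syt14, at 118 and 109 CPM in elav5, and Sytbeta, at 327 and 329 CPM in elav5, lay inside their Canton-S ranges. The log2 differences of Syt7, Syt14 and Sytbeta were 0.04 (interval -0.17 to 0.26), 0.03 (interval -0.30 to 0.35) and 0.05 (interval -0.16 to 0.26), each with a sign that turned in at least 1 alternative fit.

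The third question was what the loss of fne added once elav was gone. The remaining elav transcript was higher in elav5fne than in elav5 (log2 difference 0.94, SE 0.13, limma adjusted p = 0.00077). The groups thus did not differ in fne RNA alone. Relative to elav5, elav5fne had lower values of the same 5 members that were called against Canton-S: Syt12 (log2 change -2.91, SE 0.14, adjusted p = 8.6e-06), Syt7 (-2.26, SE 0.09, adjusted p = 6.3e-06), Sytbeta (-1.43, SE 0.09, adjusted p = 1.9e-05), Sytalpha (-1.14, SE 0.16, adjusted p = 0.00086) and Syt1 (-0.77, SE 0.11, adjusted p = 0.0010). Here limma called 43.4% of all tested genes, 16.7% lower and 26.8% higher (61.6% of calls higher, against 43.0% after quantile normalization), and the median log2 change was -1.14 over the members and 0.14 over all tested genes. The elav5fne libraries entered both this comparison and that with Canton-S. Of 10 neuron markers 9 fell against elav5 (median -1.0), of 10 neuroblast markers 9 rose (median 1.73), and of 11 muscle markers 5 rose (median 1.83, with 2 to 10 rising over the alternatives). Their part in the synaptotagmin values was not tested here either.

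For Syt12 the level was 18.2 ± 1.24 CPM in elav5fne (n = 3) and 143 ± 4.35 CPM in elav5 (n = 2). For Syt7 it was 59.3 ± 3.79 CPM in elav5fne and 288 ± 36.1 CPM in elav5. The wide spread of Syt7 in elav5, 262 and 313 CPM, was still small beside the distance to elav5fne. Sytalpha averaged 53.1 ± 8.94 CPM in elav5fne and 117 ± 14.7 CPM in elav5, a wider gap than that to Canton-S, with its elav5 libraries above the wild-type range. Syt4 averaged 657 ± 114 CPM in elav5fne and 838 ± 7.71 CPM in elav5. Its 3 elav5fne libraries all lay below its 2 elav5 libraries, yet the log2 difference of -0.37 (SE 0.14, interval -0.70 to -0.04) missed the threshold (adjusted p = 0.070). It was called in 4 of 20 alternatives, whose adjusted p ran from 0.011 to 0.19. Syt14, at 114 ± 16.7 CPM in elav5fne and 113 ± 6.63 CPM in elav5, had a log2 difference of -0.01 (interval -0.33 to 0.31, adjusted p = 0.98). The groups did not overlap for 6 of the 7 members, all lower in elav5fne. Of all tested genes 24.1% lay wholly lower in this way and 39.5% wholly higher.

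**Figure D3:**
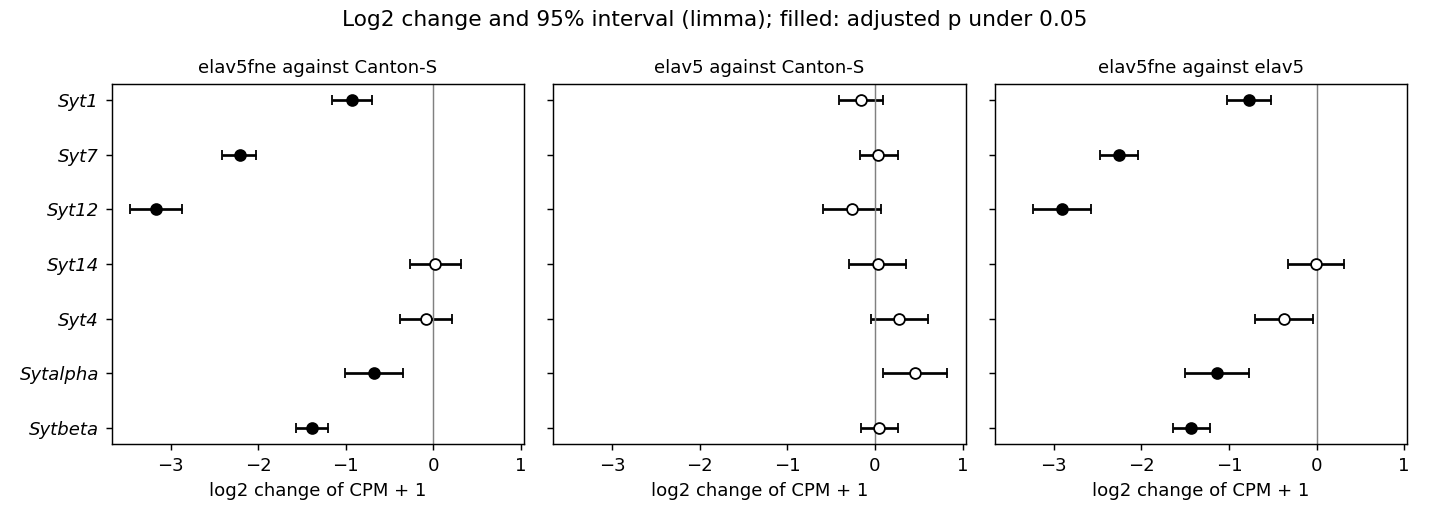
Log2 change of CPM + 1 for each member (rows) in the 3 comparisons, with 95% intervals from limma; filled points have an adjusted p under 0.05. The same 5 members are filled in both comparisons that involve elav5fne, with Syt12 at -3.17 and -2.91, and none is filled for elav5 against Canton-S.

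Members changed by unequal amounts, and the make-up of the family differed between genotypes. The summed level of the 7 genes was 2107, 2118 and 1667 CPM in elav5fne, 3432 and 3423 CPM in elav5, and 3472, 3306 and 3549 CPM in Canton-S. The elav5 sums thus lay inside the wild-type range and the elav5fne sums far below it. Syt4 made up 33.3 ± 1.64% of the family CPM in elav5fne, 24.4 ± 0.272% in elav5 and 20.0 ± 0.403% in Canton-S, and the 3 groups did not overlap. The share of Syt14 was larger in elav5fne too, at 5.78 ± 0.187%, against 3.31 ± 0.187% in elav5 and 3.24 ± 0.231% in Canton-S. Neither gene rose in CPM: Syt4 was at 95.5% and Syt14 at 102% of the Canton-S mean, while the family sum was lower. Syt7 made up 3.04 ± 0.239% in elav5fne, 8.40 ± 1.07% in elav5 and 8.08 ± 0.157% in Canton-S. For Syt12 the share was 0.932 ± 0.0673% in elav5fne, 4.17 ± 0.119% in elav5 and 5.01 ± 0.811% in Canton-S. The share of Syt1 moved little by comparison, 48.0 ± 1.23% in elav5fne, 46.7 ± 1.53% in elav5 and 52.0 ± 0.513% in Canton-S. These shares are of reads, which longer transcripts collect more of, and carry no test.

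**Figure D4:**
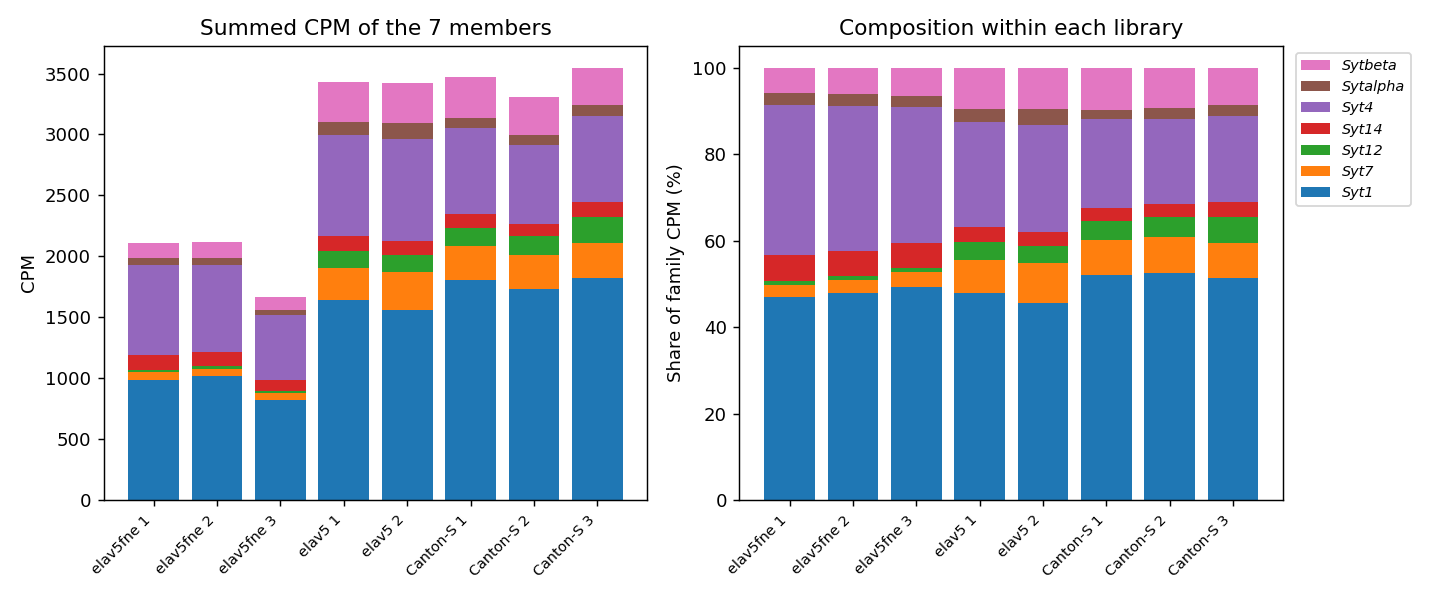
Left, summed CPM of the 7 members in each library, stacked by gene; right, the same as a share of the family total in percent. The elav5fne bars reach 1667 to 2118 CPM against 3306 to 3549 CPM in Canton-S, and the Syt4 share is widest in elav5fne.

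Unequal change was also examined within libraries, as the log2 ratio of each member to Syt1, which does not depend on the scaling to library totals apart from the pseudocount. In elav5fne against Canton-S the ratio to Syt1 differed by -2.23 for Syt12, -1.28 for Syt7 and -0.46 for Sytbeta, so these genes were lower relative to Syt1 as well. The ratio differed by 0.95 for Syt14, 0.85 for Syt4 and 0.25 for Sytalpha. All 6 ratios were without overlap between the 2 genotypes, as were the ratios to Syt1 of 87.5% of the other tested genes. Each had p = 0.10 in an exact two-sided permutation test (adjusted p = 0.10 over the 6 ratios), the smallest that 3 against 3 libraries allow, so none could pass 0.05. In elav5 against Canton-S the ratio to Syt1 was higher by 0.62 for Sytalpha, 0.45 for Syt4, 0.21 for Sytbeta and 0.20 for Syt7, each without overlap and with an exact permutation p = 0.10 (adjusted p = 0.15), again the smallest possible. The ratios of 53.5% of the other tested genes did not overlap there. The ratio of Syt14 (0.19, exact permutation p = 0.20) did not overlap either, at -3.83 to -3.78 in elav5 and -4.10 to -3.87 in Canton-S. Only the ratio of Syt12 overlapped (-0.10, exact permutation p = 0.80). In elav5fne against elav5 the ratio differed by -2.14 for Syt12, -1.49 for Syt7, -0.66 for Sytbeta, -0.37 for Sytalpha, 0.40 for Syt4 and 0.76 for Syt14, each without overlap (87.9% of the other tested genes) and with an exact permutation p = 0.10. The ratio of Sytalpha to Syt1 in elav5fne was thus below that in elav5 and above that in Canton-S.

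Levels of different members compare only per transcript length, and here the order depended on the length used. Over the union of annotated exons (7190 bases for Syt1 and 3103 bases for Syt4), Syt4 had 212 ± 36.6 and Syt1 131 ± 14.5 CPM per kb in elav5fne, while in Canton-S Syt1 had 249 ± 6.70 and Syt4 222 ± 10.7 CPM per kb. With the shortest coding transcript as length (3987 bases for Syt1), a choice made after the lengths were seen, Syt1 stood at 236 ± 26.2 CPM per kb in elav5fne and 449 ± 12.1 in Canton-S, above Syt4 in both. In elav5 the union of exons gave 270.0 ± 2.49 CPM per kb for Syt4 and 223 ± 7.72 for Syt1, and the shortest coding transcript 401 ± 13.9 for Syt1. With the longest transcript (5872 bases for Syt1), Syt1 had 160 ± 17.8 CPM per kb in elav5fne, below Syt4, and 305 ± 8.21 in Canton-S, above it. In elav5 that length gave 273 ± 9.46 for Syt1, beside 270.0 ± 2.49 for Syt4. Which of these genes leads the family in elav5fne is therefore not settled by a CPM per gene. Below them, over the union of exons, elav5fne had Syt14 (29.4 ± 4.30 CPM per kb) and Sytbeta (26.5 ± 2.39), which overlapped, then Syt7 (17.9 ± 1.15) and Sytalpha (16.6 ± 2.80), which overlapped too, and last Syt12 (3.77 ± 0.257). In Canton-S the order was Syt7 (84.0 ± 1.72), Sytbeta (69.6 ± 3.83), Syt12 (35.8 ± 6.73), Syt14 (28.9 ± 3.05) and Sytalpha (26.7 ± 2.66 CPM per kb), where Syt14 overlapped both Syt12 and Sytalpha. In elav5 it was Syt7 (87.0 ± 10.9), Sytbeta (71.9 ± 0.317), Sytalpha (36.8 ± 4.61), Syt12 (29.6 ± 0.903) and Syt14 (29.3 ± 1.71), of which Syt12 and Syt14 overlapped. Syt12 was last in elav5fne under each of the 3 lengths tried, and last in the other genotypes only with the shortest coding transcript.

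The genes that synaptotagmins work with were set beside the family, as lists written with earlier results of these data known. Of 24 genes of vesicle fusion and release, 19 fell and 1 rose in elav5fne against Canton-S (median log2 change -0.75). The SNARE gene Snap25 had the lowest log2 change, at 4.69 ± 4.26 CPM in elav5fne and 251 ± 19.2 CPM in Canton-S. Rop, the Sec1/Munc18 protein that binds syntaxin, changed by -1.51 (335 ± 25.7 CPM in elav5fne and 957 ± 20.7 CPM in Canton-S) and comt, the NSF ATPase that takes SNARE complexes apart, by -1.27. The rise was that of Syb, the broadly expressed synaptobrevin, at 72.7 ± 9.16 CPM in elav5fne and 26.1 ± 4.06 CPM in Canton-S. In elav5 against Canton-S 5 of the 24 fell, among them Syx1A (syntaxin) and cpx (complexin, which clamps SNARE complexes), with log2 changes of -0.35 and -0.41, a count that ran from 0 to 6 over the 20 alternatives. In elav5fne against elav5 17 fell and 1 rose. Of all tested genes limma called 26.7% lower and 32.5% higher in elav5fne against Canton-S. It called 11.8% lower and 8.29% higher in elav5 against Canton-S, and 16.7% lower and 26.8% higher in elav5fne against elav5. For this list and the 3 that follow, the median in elav5fne against Canton-S was negative in all 20 alternatives.

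Most of the other tested genes with C2 domains were lower in elav5fne. Of 11 tested genes 8 fell and 2 rose in elav5fne against Canton-S (median -0.52). Of all tested genes limma called 26.7% lower and 32.5% higher there, so the 2 rises were a smaller share. Among the falls were Rph, Rim and unc-13, which also stand in the vesicle fusion list. The falls included Pkc53E, a calcium-dependent protein kinase C (145 ± 14.5 CPM in elav5fne and 461 ± 21.6 CPM in Canton-S), Mctp, a membrane protein with several C2 domains (44.9 ± 2.40 CPM in elav5fne and 122 ± 1.93 CPM in Canton-S) and Pkc98E (log2 change -0.84). The rises were stac, a relative of the Munc13 priming factors that acts in tracheal tube formation, at 57.6 ± 11.1 CPM in elav5fne and 11.3 ± 1.05 CPM in Canton-S, and Esyt2, the extended synaptotagmin of contacts between endoplasmic reticulum and plasma membrane, at 221 ± 14.9 CPM in elav5fne and 132 ± 21.9 CPM in Canton-S (log2 change 0.75, adjusted p = 0.0034). In elav5 against Canton-S 2 of the 11 fell and none rose, and in elav5fne against elav5 7 fell and 1 rose. Over all tested genes limma called 11.8% lower and 8.29% higher in the former, and 16.7% lower and 26.8% higher in the latter.

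Genes that retrieve synaptotagmins and vesicle membrane after fusion were mostly lower. Of 11 tested endocytosis genes 10 fell in elav5fne against Canton-S (median -0.69), led by shi, the dynamin that cuts vesicles free (458 ± 32.2 CPM in elav5fne and 1325 ± 40.6 CPM in Canton-S), Dap160, an intersectin scaffold (267 ± 17.4 CPM in elav5fne and 608 ± 40.2 CPM in Canton-S), lap, the AP180 clathrin adaptor (log2 change -0.94), and Eps-15 (-0.80). The stoned genes stnA and stnB, whose products act in synaptotagmin retrieval, were listed at 0 in every library and were not tested. The counting tool and its annotation are not given, so a listed 0 need not mean that these genes were not expressed. In elav5 against Canton-S 3 of the 11 fell (1 to 4 over the alternatives), and in elav5fne against elav5 8 fell. Over all tested genes limma called 26.7% lower and 32.5% higher in elav5fne against Canton-S. The shares were 11.8% lower and 8.29% higher in elav5 against Canton-S, and 16.7% lower and 26.8% higher in elav5fne against elav5. Of 9 genes of dense-core vesicles and peptide processing, 5 fell and 2 rose in elav5fne against Canton-S (median -0.53), with falls of Pal2, an amidating lyase (-1.49), Cadps, the CAPS priming factor of dense-core vesicles (-1.17), amon, a prohormone convertase (-1.05), and IA-2, a dense-core vesicle membrane protein (-0.67). The rises were small, Rab2 at 0.29 (adjusted p = 0.021) and svr, a carboxypeptidase D, at 0.20 (adjusted p = 0.050, just under the threshold), both named after their values were seen. As a share of the 9 genes, these 2 rises were below the 32.5% called higher over all tested genes. Cadps also stands in the vesicle fusion list. Without elav5fne replicate 3, 4 of the 9 fell and the median was -0.32. In elav5 against Canton-S svr and Phm, a peptide-amidating monooxygenase, rose (log2 changes 0.53 and 0.35) and none fell, and in elav5fne against elav5 5 fell and none rose.

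Several lists of markers of other cells that the dissected tissue could hold moved as well. Their part in the synaptotagmin values was not tested. Over all tested genes limma called 32.5% higher and 26.7% lower in elav5fne against Canton-S, and the glia counts were near these shares. In elav5fne against Canton-S 9 of 10 neuroblast markers rose (median 1.93), with mira, a carrier of cell fate factors in dividing neuroblasts, at 338 ± 56.2 CPM in elav5fne and 73.4 ± 7.73 CPM in Canton-S. The most abundant of the 10, pros, did not move, at 193 ± 11.8 CPM in elav5fne and 192 ± 11.4 CPM in Canton-S (limma adjusted p = 0.97). Of 10 glia markers 3 rose and 3 fell (median -0.06), with nrv2 at 1403 ± 173 CPM in elav5fne and 1368 ± 41.9 CPM in Canton-S. Of 11 muscle markers 7 rose (median 2.05), of 7 gut markers 4 rose (median 2.28), of 7 hemocyte markers 3 rose (median 0.40), and of 6 ring gland markers 4 fell (median -0.87). Mhc and bt, the 2 most abundant muscle markers, had log2 changes of 2.02 and 1.43. Neither was called (limma adjusted p = 0.051 and 0.16). Of 4 fat body markers none passed the test (median -1.13), and of 5 trachea and cuticle markers 2 rose (median 0.75). Without elav5fne replicate 3, 6 muscle and 3 gut markers rose (medians 1.35 and 1.59), and the neuron and neuroblast counts were the same. Over all 20 alternatives the medians of glia, fat body and hemocyte markers changed sign and those of the other marker lists did not. Neuron markers, 4 of which also stand in the vesicle fusion list, were lower for all 10 genes, with a log2 change of -1.52 for Gad1, the enzyme of GABA synthesis. Syn, a synaptic vesicle phosphoprotein, stood at 919.7 ± 84.6 CPM in elav5fne and 1751 ± 72.6 CPM in Canton-S.

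For each member the 3 genes with the most similar profile were sought among 8025 tested genes of at least 5 CPM, by the root mean square difference of log2(CPM + 1) centred over the 8 libraries, which share their genotypes and library totals. The nearest to Syt1 was GABA-B-R1, a subunit of the metabotropic GABA receptor (difference 0.034), before Patsas (0.046) and CG32944 (0.050). The nearest to Syt7 were kek4 (0.075), which encodes a leucine-rich repeat membrane protein, dpr7 (0.089), an immunoglobulin-domain protein, and CG10804 (0.10). Syt12 had VGAT, the vesicular GABA transporter, at 0.16, with CG13999 at 0.17 and CG14186 at 0.18. Syt14 stood nearest to Dsp1 (0.024), an HMG-box protein, Toll-7 (0.054) and Ets96B (0.056). Syt4 stood nearest to the Hox gene Antp (0.042), DIP-beta (0.054) and the homeobox gene C15 (0.056). Sytalpha was nearest to prt, a transporter-like protein of vesicles (0.079), betaTub85D (0.093) and an annotated U2 snRNA (0.099), and Sytbeta to CG15651 (0.040), CG1607 (0.053) and P5CDh1 (0.058). Within the family the most alike pair was Syt4 and Syt14 (0.16), which no comparison called, followed by Syt1 and Sytalpha (0.26) and Syt1 and Sytbeta (0.28).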

How the data were processed

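CPM per gene was deposited by the authors for 8 libraries made with a stranded total RNA kit, per the labels' protocols. Reads were aligned with HISAT2 to dm6, per the submitters' processing notes, and the version, the counting tool, its annotation and its strand setting were not stated there. All values above 0 (100%) were whole reads within 0.01, so reads were recovered. The labels do not name separate animals or cultures: the p-values describe the spread among these libraries, which may be technical.

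The model was limma 3.58.1 in R 4.3.3 on log2(CPM + 1), with a mean-variance trend and 3 genotype means over all 8 libraries. Genes needed 1 CPM in 2 or more libraries (10575 genes). The adjusted p is Benjamini-Hochberg over all tested genes, with a threshold of 0.05. This scale understates the fold of low genes. The scripts were tested on simulated data. Members, lists and tests were chosen with earlier results of these data known. Named genes are the members, elav, fne and Rbp9, up to 4 called genes with the largest change per synaptic list, genes from the 2 highest per marker list and the 3 nearest profiles per member. Esyt2, Syx1A, zyd, cpx, Phm, svr, Rab2 and the genes overlapping members were picked after their values were seen. Of 136 list entries 135 were found in the table. Alternatives were edgeR 4.0.16 and DESeq2 1.42.0 on the recovered reads, other pseudocounts, filters and scalings, a replicate block, fits of 2 groups only or without the trend, and libraries left out. The labels do not say that replicate numbers pair the libraries, and the main fit did not pair them.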

Additional observations from a re-analysis of the deposited data

How the results depend on the processing

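In both comparisons that involve elav5fne, Syt1, Syt7, Syt12, Sytalpha and Sytbeta were lower and past the threshold in all 20 alternatives, with log2 changes against Canton-S of -1.01 to -0.84, -2.30 to -2.14, -3.32 to -2.93, -0.77 to -0.54 and -1.47 to -1.31. Syt4 stayed lower in elav5fne against elav5, at -0.49 to -0.20, and was called in 4 of the 20. Signs that did change are as follows, and the cause was not tested. For Syt14 in elav5fne against Canton-S the log2 difference was -0.06 with median-ratio scaling, -0.05 with edgeR and -0.03 with DESeq2, and -0.06 to 0.14 over fits that left out 1 library. For Syt4 the same fits gave -0.17 to 0.07 in elav5fne against Canton-S, and 0.07 without both elav5 replicate 2 and elav5fne replicate 3. In elav5 against Canton-S they gave -0.08 to 0.17 for Syt7 (-0.08 without both libraries) and -0.05 to 0.10 for Syt14. In elav5fne against elav5 they gave -0.09 to 0.12 for Syt14 (0.06 without both libraries).

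In elav5 against Canton-S the number of synaptotagmins called higher was 0, against 1 in the fit of these 2 groups only (Sytalpha, adjusted p = 0.049), 1 with DESeq2 (Sytalpha, 0.022), 1 without both libraries (Syt4, 0.047) and 0 to 2 over fits without 1 library, where elav5fne replicate 3 gave the 2. The number of genes called there was 2124, and 820 to 2550 over fits without 1 library, with 905 without Canton-S replicate 1, 1050 without Canton-S replicate 2, 820 without elav5 replicate 2 and 2550 without elav5fne replicate 3. Where a fit leaves elav5 with 1 library, that library is assumed to vary like the other groups. A level of 0.0788 to 0.0999 CPM, depending on the library, stands for 3 reads, far under the level of any member.

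The replicate block called 5751, 932 and 3545 genes in elav5fne against Canton-S, elav5 against Canton-S and elav5fne against elav5, against 6259, 2124 and 4593 without it. Under the block the log2 difference of Sytbeta in elav5 against Canton-S was 0.00 and turned sign, and that of Syt14 in elav5fne against elav5 was 0.02, while no synaptotagmin call changed. Deviations from the group means correlated by -0.36 to 0.11 between libraries with the same number (7 pairs) and by -0.16 to 0.32 between libraries with different numbers (14 pairs). Such deviations cancel within a group, so these pairs depend on each other and cannot settle whether the numbers pair libraries.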

Other observations

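Sytbeta is a long gene, and several short genes overlap its span without sharing exonic bases. They are described here after their values were seen. CG18649, on the strand of Sytbeta, had 83.0, 336 and 165 CPM in elav5fne, 83.4 and 55.1 CPM in elav5, and 4.87, 8.39 and 15.6 CPM in Canton-S. Its lowest value in either mutant was above its highest in Canton-S, with limma log2 changes of 4.11 in elav5fne (adjusted p = 0.00040) and 2.83 in elav5 (adjusted p = 0.018) against Canton-S. EAChm, on the opposite strand, had 7.13, 11.5 and 13.5 CPM in elav5fne, 7.99 and 2.22 CPM in elav5, and 0.224, 0.939 and 0.0788 CPM in Canton-S. It too was higher in both mutants, by 3.05 in elav5fne (adjusted p = 0.00050) and 1.98 in elav5 (adjusted p = 0.025) on the log2 scale. All Canton-S values of EAChm were under the pseudocount of 1 CPM, and that of replicate 3 stood for 3 reads. The size of these log2 changes thus depends on the pseudocount. CG12310 had 88.3, 358 and 142 CPM in elav5fne, 31.1 and 37.5 CPM in elav5, and 33.4, 11.9 and 48.2 CPM in Canton-S, with a log2 change of 2.57 in elav5fne against Canton-S (adjusted p = 0.0072). Among the elav5fne libraries, CG18649 and CG12310 were highest in replicate 2, and EAChm was highest in replicate 3, the library with the highest muscle marker level. The part of muscle RNA in these values was not tested. Rpn12R, on the strand of Sytbeta, was lower in elav5fne, at 0.561, 0.689 and 0.420 CPM, against 2.63 and 2.96 CPM in elav5 and 3.14, 2.48 and 3.76 CPM in Canton-S, with a log2 change of -1.40 against Canton-S (adjusted p = 0.00023). Of the other tested genes that overlap Sytbeta, CG13461 was higher in elav5fne against Canton-S (log2 change 3.46, limma adjusted p = 0.0028). It was also higher in elav5 against Canton-S (2.53, limma adjusted p = 0.047). The genes ind, CG18581, CG13460 and CG43678 were not called in elav5fne against Canton-S. Sytbeta itself was lower in elav5fne, as Rpn12R was, while CG18649, EAChm, CG12310 and CG13461 were higher.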
